A study of Mus musculus with 10 samples.

Results

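The sulfatase genes Arsj, Arsa, Arsb, Ids, Sulf1 and Sulf2 were followed across 10 mouse tumors on 2-colour Agilent arrays, 1 array per tumor. The 6 genes were chosen by name, and every array probe whose gene name in the files was one of them, or a synonym of one, was taken. This gave 12 probes of 41174, with 1 probe each for Arsj, Arsa and Sulf1, 2 for Sulf2, 3 for Arsb and 4 for Ids. Arsj was picked because its mean was higher in sarcomatoid carcinomas than in adenocarcinomas of these same tumors, so its difference between those groups is described without a test. For the other 5 genes the question was whether they shared that difference.

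Sulfatases remove sulfate groups from sugars, lipids and steroids, and each needs a formylglycine residue in its active site that Sumf1 makes. Arsa, Arsb and Ids work in the lysosome, where they act in the breakdown of sulfatide, of dermatan and chondroitin sulfate, and of dermatan and heparan sulfate respectively. Sulf1 and Sulf2 are released to the cell surface and trim sulfates from heparan sulfate chains, which alters the binding of growth factors. Arsj was named for its sequence likeness to the arylsulfatases, and its substrate is not well known.

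The 5 spindle cell tumors form the sarcomatoid group (tumor 594 is labelled sarcomatoid carcinoma, the other 4 sarcomatoid adenocarcinoma). Tumors 323, 307 and 594 came from the mammary gland and the other 2 were lung tumors that carry the numbers 323 and 307. The 5 adenocarcinomas (105, 131, 470, 17 and 85) came from the mammary gland. The study set metastatic sarcomatoid tumors against adenocarcinomas whose cell lines did not metastasize. Per the study's methods the compound mutant mice were made on a C57BL/6 background, and the mice in which the mammary tumors arose carried MMTV-Cre, which acts mainly in mammary epithelium. The adenocarcinomas carried Pik3ca H1047R and Trp53 R270H, and tumor 594 carried Trp53 R270H alone. Of tumors 323 and 307, one carried Pik3ca H1047R with Trp53 R270H and the other Pik3ca H1047R with a spontaneous Trp53 R245H mutation, and the sources used here do not say which is which. Each lung tumor grew from a cell line of the mammary tumor of its number after injection into a tail vein, so the sarcomatoid group holds 3 tumor origins and the lung group cells that had passed through culture. The ages of the mice were not given.

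Values are log2 ratios of tumor over a common reference RNA, and a difference is one of mean log2 ratios. The labels name Cy3, the green channel, as the dye of the tumor RNA. The green signals, however, varied less between arrays (mean SD 0.737 on the log2 scale) than the red ones (0.975). Red was therefore read as the tumor, the direction is called likely, and if the dye label were right every sign below would turn. The deposited table ran as red over green on all 10 arrays, which alone does not show which dye the tumor carried. Sarcomatoid minus adenocarcinoma differences of red over green were -3.23 for Krt18, -2.32 for Epcam and -2.89 for Dsp. The study reports these genes as lower in the metastatic tumors. For Arsj the green signal lay between 8.26 and 9.32 on the log2 scale across the 10 arrays, while the red signal lay between 4.18 and 11.83. Between 52.2% and 83.0% of probes were well above background per array. By the version of the scanner's extraction protocol the arrays fell into 3 scan batches, which held tumor 323 (batch 1), tumors 307, 594, 105 and 470 (batch 2), and both lung tumors with 131, 17 and 85 (batch 3).

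Adenocarcinoma 470 stood apart from its group. The mean log2 ratio of 10 epithelial marker genes was -1.35 in tumor 470 and between 2.67 and 3.16 in the other 4 adenocarcinomas. It lay between 0.60 and 1.04 in the 3 mammary sarcomatoid tumors, and was -1.51 and -1.73 in the lung tumors 323 and 307. The mean of 10 mesenchymal markers was 1.74 in tumor 470, -1.84 to 0.54 in the other adenocarcinomas and -1.05 to 1.97 in the sarcomatoid tumors. Values of the members between the groups are given with and without it.

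Arsj was the member with the largest mean difference between the groups. Its single probe (A_52_P549166) lies on chromosome 3 from 126277484 to 126277543 (mm7 build). Its log2 ratio was 1.19 in tumor 323, 2.54 in lung tumor 323, 0.66 in tumor 307, 1.97 in lung tumor 307 and 1.54 in tumor 594. In the adenocarcinomas it was -1.48 in tumor 105, -2.39 in 131, 0.78 in 470, -2.05 in 17 and -1.53 in 85. All sarcomatoid tumors lay above 4 of the 5 adenocarcinomas, and the groups overlapped only because tumor 470 lay above tumor 307. The difference was 2.91, a ratio of 7.54, and 3.44 without tumor 470. The probe was well above background on all 5 sarcomatoid arrays and on 3 of 5 adenocarcinoma arrays (not on 131 and 85), so the lowest values are near the floor of the measurement. In the deposited table, whose normalization steps are not given, the same probe ran from 0.72 to 2.79 in sarcomatoid tumors and from -4.17 to 0.86 in adenocarcinomas, a difference of 4.24 or a ratio of 18.9, so the size of the ratio depends on the processing. Only 6 of 40884 probes without missing values (0.0147%), Arsj among them, had a difference as large, a description only since Arsj was picked for this difference.

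To show regulatory sequence beside the values, the 250 bases before the transcription start were read from RefSeq (GRCm38.p6), which holds windows for 5 of the 6 genes (all but Sulf1, and 6 windows in all, 2 of them for Sulf2). The windows of Arsj, the member with the largest mean difference between the groups, and of Arsa and Arsb, the members nearest to it in difference between lung and mammary tumors, are shown 5′ to 3′ on the strand of the gene. Capitals mark matches on either strand to CACCTG (the E-box read by Snail and Zeb factors), CACGTG (core of the CLEAR element found before many lysosomal genes), TGANTCA (AP-1) or TATAAA.
Arsj, chr3:126363602-126363851, plus strand: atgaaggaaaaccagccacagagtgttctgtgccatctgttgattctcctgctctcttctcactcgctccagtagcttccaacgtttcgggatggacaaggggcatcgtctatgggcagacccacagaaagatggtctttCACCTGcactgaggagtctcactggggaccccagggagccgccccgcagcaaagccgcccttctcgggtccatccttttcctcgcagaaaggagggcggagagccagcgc
Arsa, chr15:89477425-89477674, minus strand: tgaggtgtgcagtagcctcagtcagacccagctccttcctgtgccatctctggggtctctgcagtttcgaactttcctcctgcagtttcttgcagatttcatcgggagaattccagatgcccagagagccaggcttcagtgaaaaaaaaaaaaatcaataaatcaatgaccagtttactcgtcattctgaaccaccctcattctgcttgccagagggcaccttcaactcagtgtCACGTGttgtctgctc
Arsb, chr13:93771429-93771678, plus strand: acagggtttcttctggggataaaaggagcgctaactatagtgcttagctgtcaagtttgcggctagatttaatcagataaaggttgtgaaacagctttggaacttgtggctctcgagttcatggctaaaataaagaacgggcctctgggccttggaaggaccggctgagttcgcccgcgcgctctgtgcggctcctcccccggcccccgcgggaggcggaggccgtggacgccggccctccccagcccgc
The Arsj window holds 1 match, CACCTG, which begins 110 bases before the start. A match to this motif stands in 17.2% of 32851 mouse promoter windows of this length. The Arsa window holds 1 match, CACGTG, 16 bases before the start, a motif in 6.02% of windows. The Arsb and Ids windows hold none of the 4 motifs. In 1 of the Sulf2 windows a CACCTG begins 29 bases before the start and a TATAAA 244 bases before it, and the other window holds none. TGANTCA (in 6.75% of windows) was in no window of the members, and TATAAA stands in 12.4% of windows. Such matches describe the sequence and do not show that a factor binds there.

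**Figure D1:**
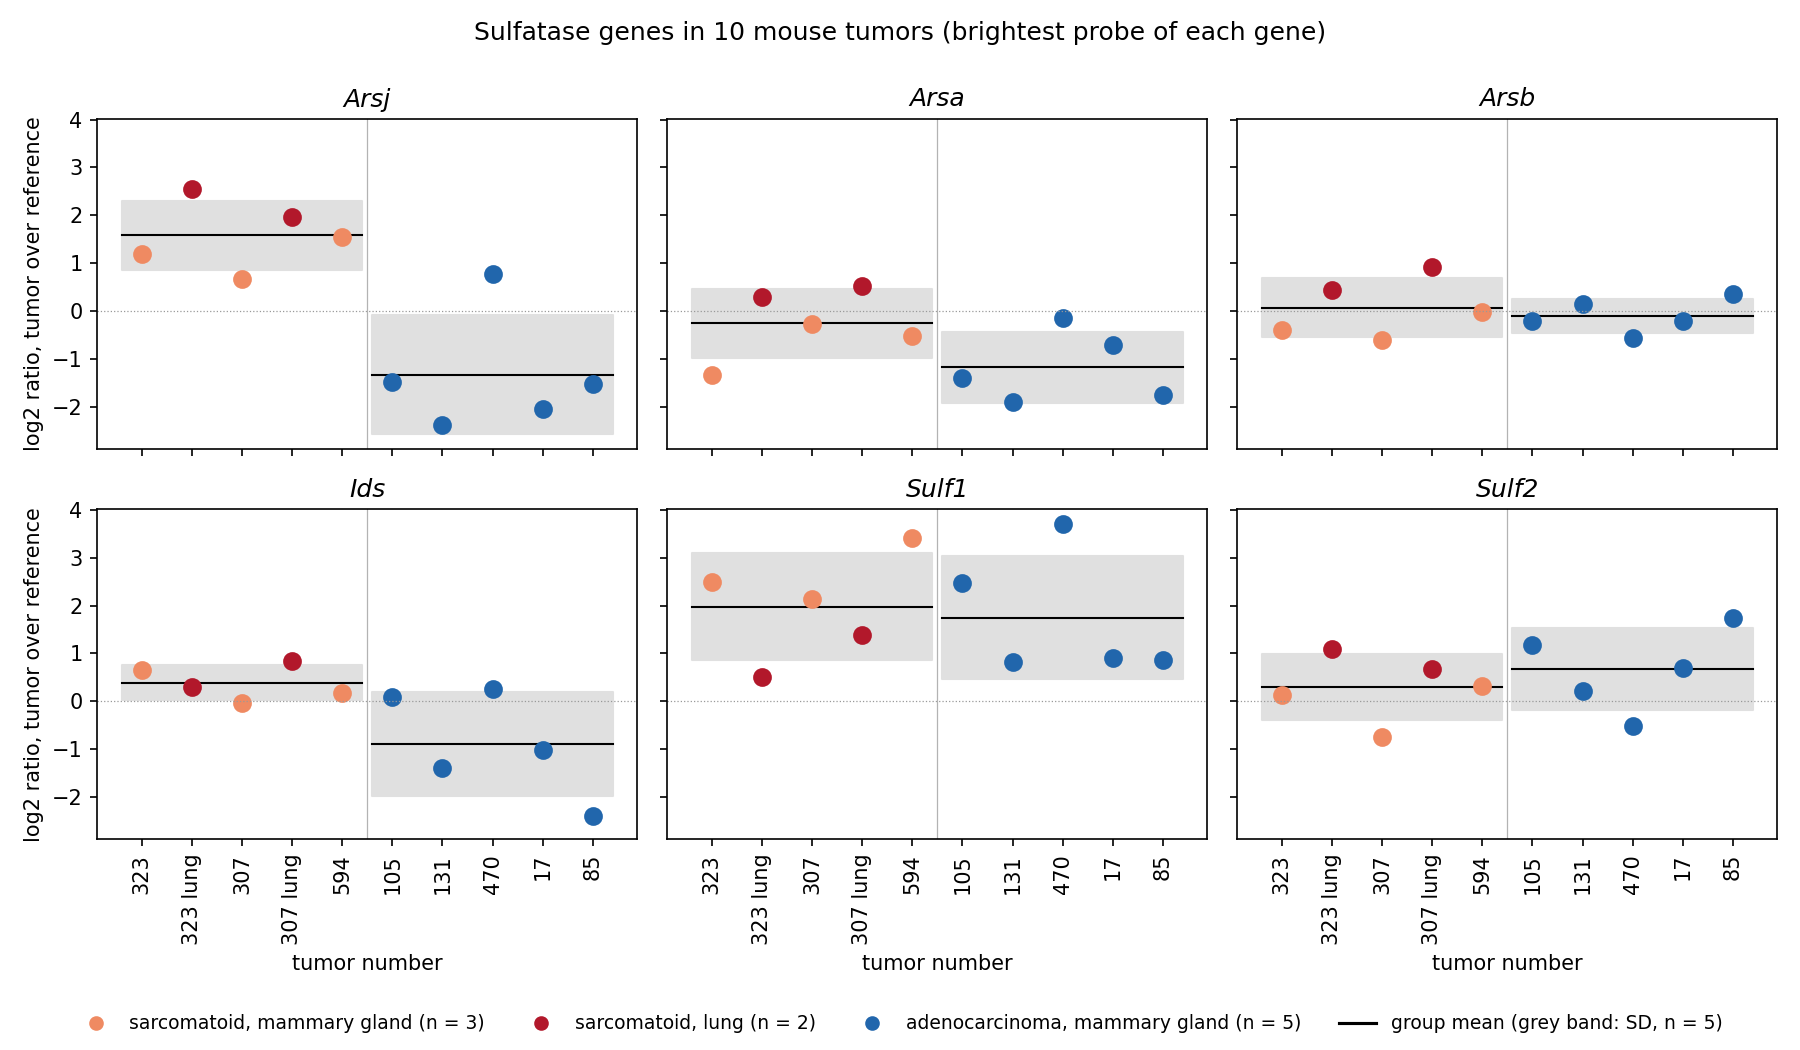
Log2 ratio of tumor over reference (y axis) for the brightest probe of each sulfatase gene in each tumor (x axis, tumor number), with the group mean as a line and its SD as a grey band (n = 5). Arsj separates the groups apart from adenocarcinoma 470 at 0.78, while the other 5 genes overlap more widely.

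None of the other 5 genes had a difference near that of Arsj, and none passed the test between the groups. In limma 0 of 41174 probes passed at an adjusted p below 0.05 (0%), with 0.0725 as the smallest adjusted p, while 4053 (9.84%) lay below 0.05 unadjusted. On the brightest probe of each of the 6 genes the groups overlapped, while 1.34% of all probes without missing values did not overlap. Of the 5 genes, 4 had a positive difference and Sulf2 a negative one, with a median of 0.23 beside -0.00525 over all probes. By the brightest probe, 1 of the 5 (Ids) was higher at an unadjusted p below 0.05, where 4.74% of all probes were higher and 5.1% lower at that level. Without tumor 470 there were 2 (Ids and Arsa), where 7.1% of all probes were higher and 1.54% passed at an adjusted p below 0.05. Leaving out mammary tumor 323 also gave 2, for which the share of all probes is not given here. Between the same groups all 10 epithelial markers had negative differences (5 at an unadjusted p below 0.05) and all 10 mesenchymal markers positive ones (1 at that level), and their part in the sulfatase values was not tested. In bulk tumors, fewer cells of a type and less RNA per cell cannot be told apart.

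Arsa, the lysosomal arylsulfatase A, had a larger mean difference than Arsb, the other lysosomal arylsulfatase here. Its log2 ratio was -1.34 in tumor 323, 0.30 in lung tumor 323, -0.27 in tumor 307, 0.52 in lung tumor 307 and -0.52 in tumor 594. The adenocarcinomas lay at -1.40 (105), -1.91 (131), -0.14 (470), -0.71 (17) and -1.76 (85). The groups overlapped, since sarcomatoid tumor 323 lay near the low adenocarcinomas and tumor 470 among the sarcomatoid tumors. The difference was 0.92 (SE 0.43, limma adjusted p 0.523). Without tumor 470 it was 1.18 (SE 0.40), with an adjusted p of 0.197, and among mammary tumors only it was 0.47.

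Ids, iduronate 2-sulfatase, has 4 probes. The log2 ratio of the brightest (A_52_P123018, chromosome X) was 0.65 in tumor 323, 0.30 in lung tumor 323, -0.03 in tumor 307, 0.85 in lung tumor 307 and 0.18 in tumor 594. In the adenocarcinomas it was 0.09 in tumor 105, -1.39 in 131, 0.25 in 470, -1.01 in 17 and -2.40 in 85. Tumors 105 and 470 lay within the sarcomatoid range and the other 3 adenocarcinomas below it. The difference was 1.28 (SE 0.47, limma adjusted p 0.438). The 3 low tumors were the adenocarcinomas of scan batch 3, so that within batch 2 the groups differed by -0.09 and within batch 3 by 2.18. With scan batch as a term it was 1.14 (adjusted p 0.555), and without tumor 470 it was 1.57 (adjusted p 0.126). The other 3 Ids probes were dimmer and gave differences of 0.21, 0.20 and 0.09. The probes of this gene thus differ in size though not in sign. The probe with 0.21 (A_52_P438210, unadjusted p 0.0398, limma adjusted p 0.482) gave 0.17 within batch 2 and 0.25 within batch 3. On it the sarcomatoid tumors lay between 0.31 and 0.54, and only adenocarcinoma 131 (0.40) reached that range. The probes with 0.20 and 0.09 gave 0.14 and -0.02 within batch 2, and 0.32 and 0.15 within batch 3.

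Arsb, the lysosomal N-acetylgalactosamine-4-sulfatase, overlapped between the groups on all 3 of its probes. The brightest (A_52_P105801, chromosome 13 from 91003852 in mm7) lay at 0.07 ± 0.62 (SD, n = 5) in the sarcomatoid group and -0.10 ± 0.35 (SD, n = 5) in adenocarcinomas. The difference was 0.16 (limma adjusted p 0.907), 0.05 without tumor 470 and -0.25 among mammary tumors only. A second probe, listed under an older name of the gene (A_51_P468415) and 1165 bases from the first, gave 0.66 (adjusted p 0.582). The remaining probe (A_52_P339806) was well above background on 4 of 10 arrays and gave 0.02.

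Sulf1 and Sulf2, the extracellular endosulfatases, had differences smaller than their SE when tumor 470 was included. Sulf1 (A_51_P142744, chromosome 1) lay at 1.98 ± 1.11 (SD, n = 5) in the sarcomatoid group and 1.75 ± 1.29 (SD, n = 5) in adenocarcinomas, a difference of 0.23 (SE 0.69, limma adjusted p 0.945). The brightest Sulf2 probe (A_51_P133229, chromosome 2) lay at 0.30 ± 0.69 (SD, n = 5) and 0.67 ± 0.86 (SD, n = 5), a difference of -0.36 (SE 0.45, adjusted p 0.850). Without tumor 470 the differences were 0.72 (SE 0.59, adjusted p 0.668) for Sulf1 and -0.66 (SE 0.41, adjusted p 0.534) for Sulf2, both larger than their SE. The second Sulf2 probe shares 40 bases with the first and is no separate measurement, and its difference was -0.38.

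**Figure D2:**
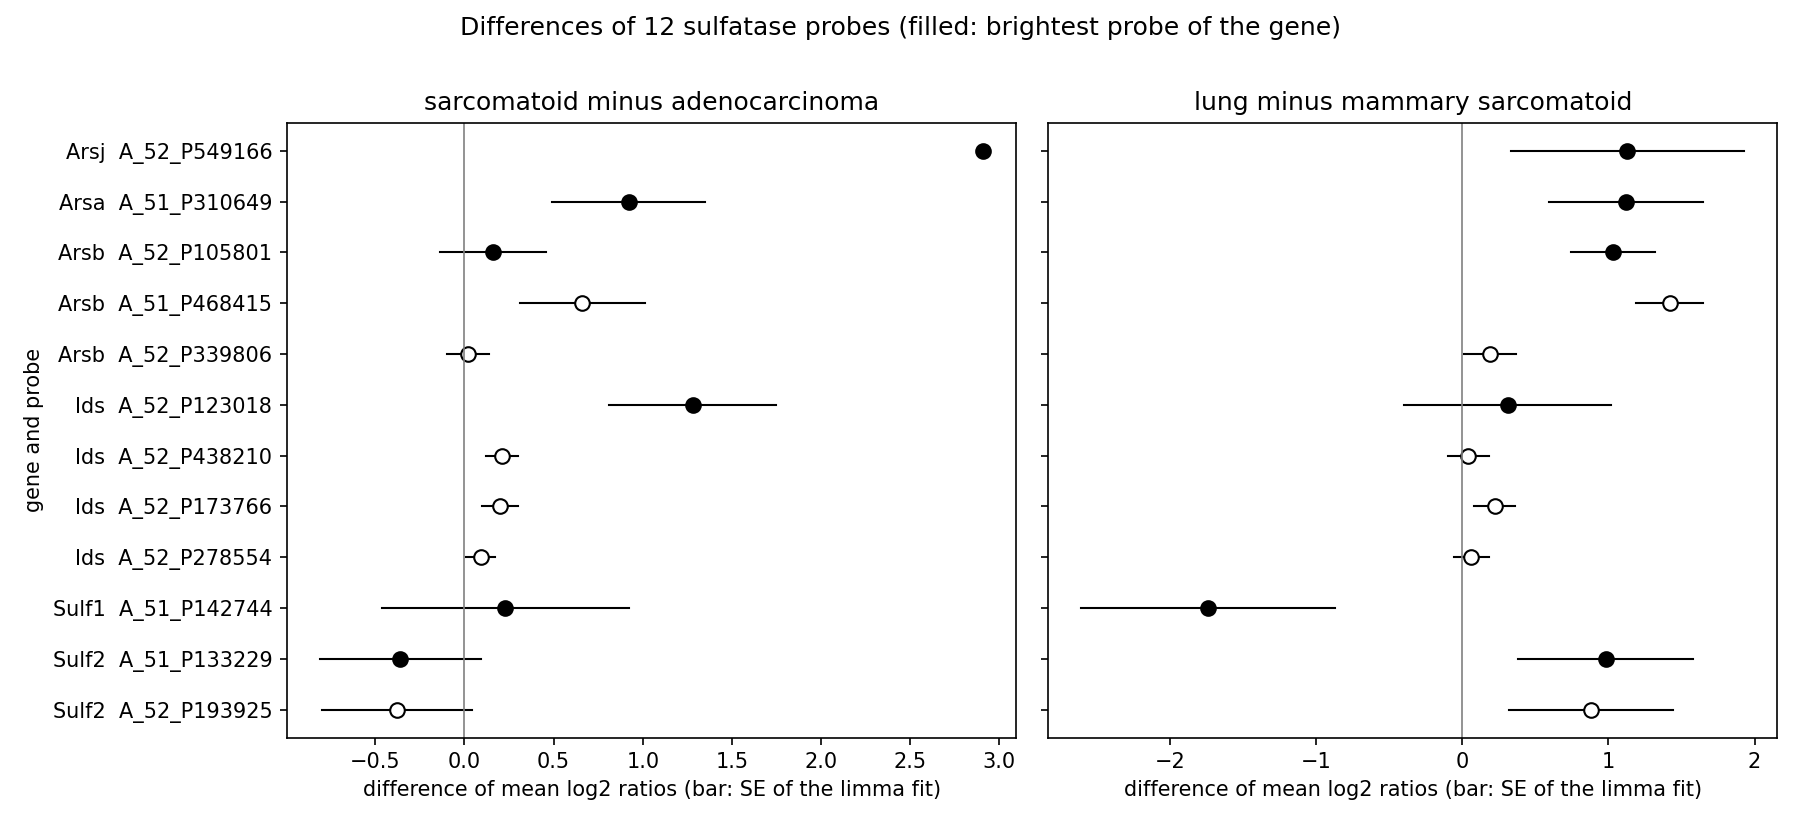
Differences of mean log2 ratios (x axis, with the SE of the limma fit as a bar) for the 12 probes (y axis), sarcomatoid minus adenocarcinoma on the left and lung minus mammary sarcomatoid on the right. Arsj stands at 2.91 on the left, with no bar because it was chosen on that comparison, and on the right 4 of the 6 genes have their brightest probe near 1.

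The values of Sulf1 followed the scan batch. Sulf1 was 2.49 in tumor 323 (batch 1), and 2.13, 3.42, 2.47 and 3.70 in tumors 307, 594, 105 and 470 (batch 2). In batch 3 it was 0.50 in lung tumor 323, 1.38 in lung tumor 307, 0.82 in tumor 131, 0.91 in tumor 17 and 0.86 in tumor 85. Batches 1 and 2 did not overlap with batch 3, whichever group the tumor belonged to. Of all probes without missing values, 3.94% did not overlap in this split, and 1.82% were higher in batches 1 and 2. Within batch 2 the sarcomatoid minus adenocarcinoma difference was -0.31 and within batch 3 it was 0.08. Batch 3 holds both lung tumors and the 3 adenocarcinomas with the lowest mesenchymal marker means (-1.84 to -1.03), and the part of batch or of cell content in the Sulf1 values was not tested.

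For Arsj the mean of the sarcomatoid tumors was higher within both batches that held both groups. In batch 2, with 2 arrays per group, the means differed by 1.45 but the tumors overlapped, since tumor 470 (0.78) lay above tumor 307 (0.66). In batch 3, with the 2 lung tumors and 3 adenocarcinomas, the means differed by 4.25 and the tumors did not overlap. Adenocarcinomas 131 and 85 of that batch were near the floor, and tumor 17 was little brighter. Their log2 red signals were 4.18 (131), 4.41 (85) and 4.78 (17). Arsj was picked on these same values, so the split describes them and is no separate test. With scan batch as a term the sarcomatoid over adenocarcinoma difference was 2.97, and with 1 value per tumor number it was 2.91.

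**Figure D3:**
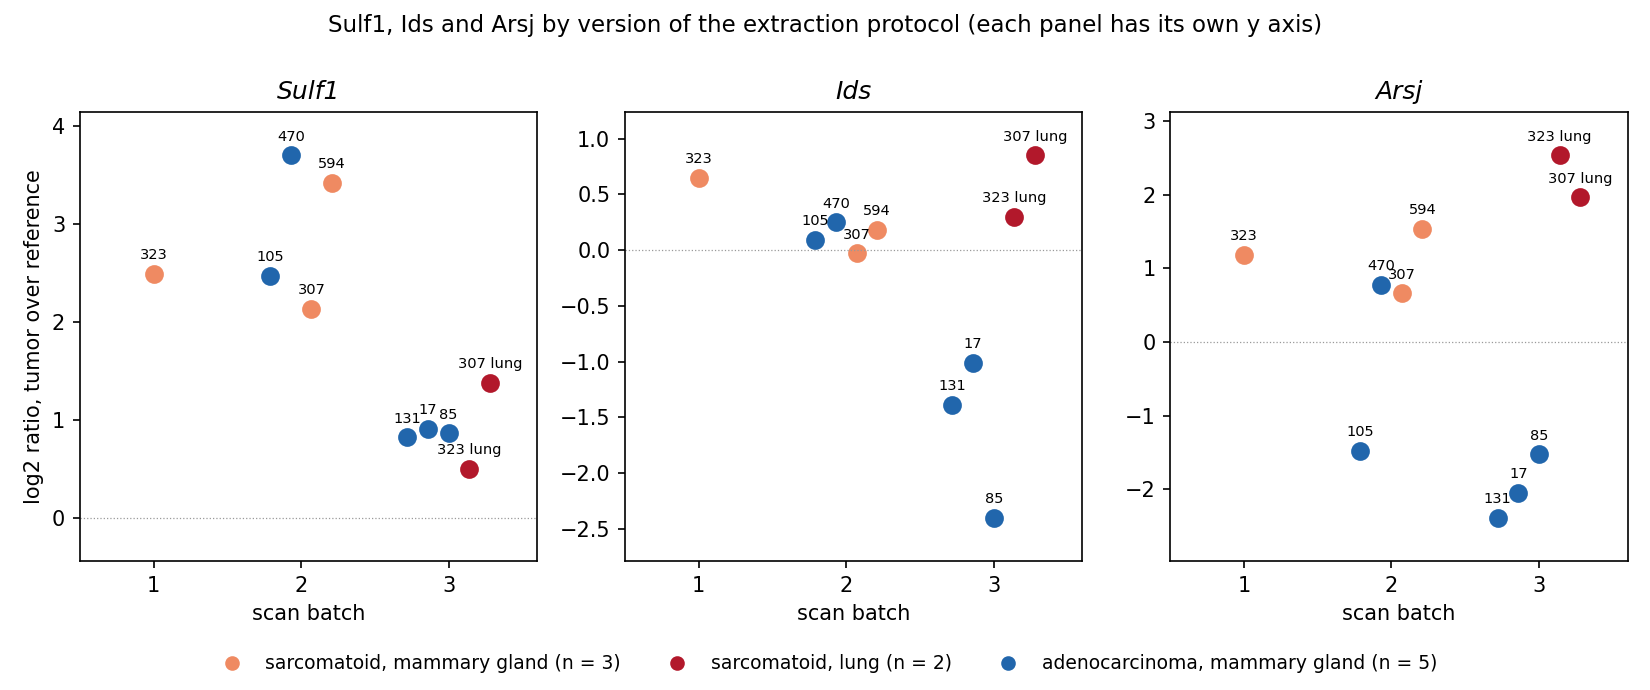
Log2 ratio of tumor over reference (y axis) by scan batch (x axis) for the brightest probes of Sulf1, Ids and Arsj, each point a tumor. Sulf1 lies at 2.13 or above in batches 1 and 2 and at 1.38 or below in batch 3 for both groups, Ids is low in the 3 adenocarcinomas of batch 3, and Arsj differs between the groups within batch 3.

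Arsj was not picked on the contrast of lung with mammary sarcomatoid tumors, though the members were chosen with earlier results of these data known. In this contrast Arsj, Arsa, Arsb and Sulf2 had differences of similar size. The lung tumor minus the mammary tumor of the same number was 1.35 for tumor 323 and 1.31 for tumor 307 in Arsj. It was 1.64 and 0.79 in Arsa, 0.84 and 1.53 in Arsb, and 0.96 and 1.42 in Sulf2. Both pairs thus ran the same way in these 4 genes. The share of all probes in which both pairs ran the same way is not given here. In both pairs the lung tumor also differed from its partner in scan batch. Ids ran opposite ways (-0.35 and 0.89) and Sulf1 was lower in both lung tumors (-1.98 and -0.75).

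None of these differences passed the limma test over all probes, in which 2 of 41174 probes (0.00486%) had an adjusted p below 0.05. The difference of lung (n = 2) over mammary sarcomatoid tumors (n = 3) was 1.13 (SE 0.80, limma adjusted p 0.837) for Arsj. It was 1.12 (SE 0.53, adjusted p 0.723) for Arsa, 0.98 (adjusted p 0.801) for Sulf2, -1.74 (SE 0.87, adjusted p 0.755) for Sulf1 and 0.31 (adjusted p 0.969) for Ids. Arsb gave 1.03 (SE 0.29, unadjusted p 0.00627, limma adjusted p 0.561) with its brightest probe. By the brightest probe, Arsb was the 1 gene of the 5 besides Arsj at an unadjusted p below 0.05, where 7.04% of all probes were (3.76% higher and 3.28% lower). That count was 3 without adenocarcinoma 470, which enters this fit only through the estimate of the spread. The share of all probes at that level without tumor 470 is not given here, so this count has no background to be read against.

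In Arsj, Arsa and Arsb both lung tumors lay above all other 8 tumors on the brightest probe. The lower lung tumor was at 1.97 and the highest of the others at 1.54 in Arsj, at 0.30 and -0.14 in Arsa, and at 0.44 and 0.35 in Arsb, where the margin was thus narrow. Of all probes, 2.64% put both lung tumors above the other 8, a share to set beside Arsa and Arsb only. Arsj was picked for a higher mean in sarcomatoid tumors than in adenocarcinomas. The other 8 include the adenocarcinomas, so the order in Arsj was partly set by that choice. The margin was wider on the second Arsb probe. There the log2 ratio was 0.96 in lung tumor 323 and 1.07 in lung tumor 307, against -0.49 (323), -0.66 (307) and -0.06 (594) in the mammary sarcomatoid tumors and -0.70 to -0.03 in the adenocarcinomas. On the brightest Arsb probe the lung tumors lay at 0.44 and 0.93 and the other 8 between -0.61 and 0.35. The second probe gave a lung over mammary difference of 1.42 (SE 0.23, unadjusted p 0.000182, limma adjusted p 0.281). The remaining, dim probe gave 0.19 and was not well above background on either lung array.

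**Figure D4:**
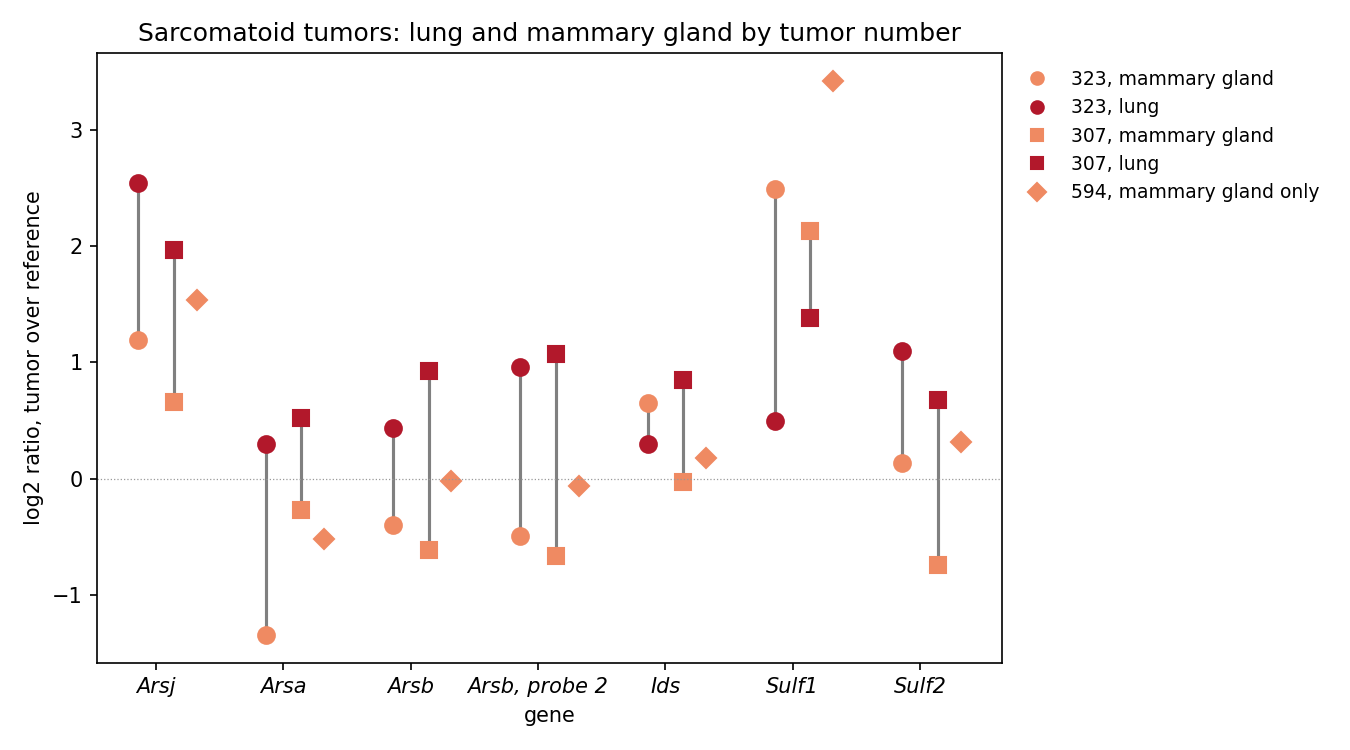
Log2 ratio of tumor over reference (y axis) for each sulfatase gene (x axis) in the lung and mammary tumors of numbers 323 and 307, joined by lines, and in mammary tumor 594, by the brightest probe and, for Arsb, also the second probe. Both lung tumors lie above the mammary tumor of the same number for Arsj, Arsa, Arsb and Sulf2, and below it for Sulf1.

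Both lung tumors were in scan batch 3 and none of the mammary sarcomatoid tumors was, so site, passage through culture and scan batch cannot be told apart within the sarcomatoid group. Among the adenocarcinomas, batch 3 minus batch 2 was -1.64 for Arsj, -0.69 for Arsa, -1.77 for Ids and -2.22 for Sulf1. It was 0.49 for Arsb and 0.56 for Sulf2. Batch 2 held only adenocarcinomas 105 and 470, at -1.48 and 0.78 in Arsj, so the Arsj value depends strongly on tumor 470. In batch 3, adenocarcinomas 131 and 85 were near the floor in Arsj. With scan batch as a term, which draws on the adenocarcinomas, the lung over mammary difference was 2.80 for Arsj, 1.49 for Arsa, 0.51 for Arsb, 0.54 for Sulf2 and 2.27 for Ids. That of Sulf1 turned to 0.39. In the same contrast all 10 epithelial markers had negative differences, 3 of them at an unadjusted p below 0.05, as did 5 of 6 T cell markers, 4 at that level, and 4 of 5 endothelial markers, 0 at that level. The T cell marker mean was -0.65 and -0.38 in the lung tumors and 0.44 to 0.76 in the mammary sarcomatoid tumors. The macrophage marker mean was 2.42 and 2.66 in lung and 2.16 to 3.05 in mammary sarcomatoid tumors. The mean of 6 lung epithelium markers was -0.11 and -0.06 in the lung tumors and -0.26 to 0.07 in the mammary sarcomatoid tumors, and 2 of the 6 were not well above background on either lung array. The part of these cell types in the sulfatase values was not tested.

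A list of 9 further genes on the array held other sulfatases with Sumf1 and its relative Sumf2. Of these, 0 passed an unadjusted p below 0.05 between sarcomatoid tumors and adenocarcinomas (9.84% of all probes did). Their differences ran from -0.81 (Arsi) to 0.65 (Sgsh). In lung over mammary sarcomatoid tumors, 3 of the 9 were higher at that level and 0 lower, where 3.76% of all probes were higher and 3.28% lower. Among them were Arsg, a lysosomal arylsulfatase (0.94, SE 0.28, unadjusted p 0.00901, limma adjusted p 0.561), and Sgsh, the heparan N-sulfatase (0.99, SE 0.42, adjusted p 0.693). Arsg was -0.37 in lung tumor 323 and -1.05 in lung tumor 307, against -1.84 to -1.55 in the mammary sarcomatoid tumors. Both lung tumors lay above the 3 mammary ones. A second Sgsh probe gave -0.02, so its probes disagree. Arsi (-1.24) and the brightest Arsk probe (-1.02) had negative values in this contrast, and a second Arsk probe gave 0.69. With scan batch as a term 1 of the 9 was higher, and the share of all probes in that fit is not given here.

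Genes that act in the breakdown of the same sulfated glycans without being sulfatases had mostly positive differences. Of 12 such genes, 9 had a positive sarcomatoid over adenocarcinoma difference, with a median of 0.40. At an unadjusted p below 0.05, 4 were higher and 0 lower, where 4.74% of all probes were higher and 5.1% lower. Gusb, beta-glucuronidase, gave 0.82 (limma adjusted p 0.400). Of 14 other lysosomal genes, 13 had a positive difference and 4 were higher at that level, Lamp2 (1.08, adjusted p 0.405) and Fuca1 (0.45, adjusted p 0.461) with the smallest p. Without tumor 470 the counts were 5 of 12 and 6 of 14, where 7.1% of all probes were higher. Macrophages are rich in lysosomes, and of 8 macrophage markers 6 were also higher at an unadjusted p below 0.05, with a list mean of 2.16 to 3.05 in sarcomatoid tumors, 2.57 in tumor 470 and 0.26 to 1.71 in the other adenocarcinomas. Their part in the lysosomal values was not tested.

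In lung over mammary sarcomatoid tumors, 3 of the 12 glycan-breakdown genes were higher at an unadjusted p below 0.05, the heparan sulfate enzymes Naglu (0.92, limma adjusted p 0.620) and Idua (0.44, adjusted p 0.645) among them. A second Naglu probe gave -0.02. Of the 14 other lysosomal genes 3 were higher, among them Tpp1, a lysosomal peptidase (0.99, adjusted p 0.575), and Gaa, the acid alpha-glucosidase (1.53, adjusted p 0.617). Of all probes, 3.76% were higher at that level. With scan batch as a term the counts were 0 of 12 and 3 of 14, and the share of all probes in that fit is not given here.

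The genes that build and sulfate the glycans were mixed. Of 25 measured genes for heparan sulfate synthesis, 2 were higher in sarcomatoid tumors at an unadjusted p below 0.05 and 3 lower. Their median was 0.01, and of all probes 4.74% were higher and 5.1% lower at that level. Ndst2, an N-deacetylase and N-sulfotransferase, gave 0.49 (limma adjusted p 0.459) and Extl2 gave 0.75 (adjusted p 0.484). Hs6st1, a 6-O-sulfotransferase whose product the endosulfatases act on, gave -1.03 (adjusted p 0.420), and Hs3st1, a 3-O-sulfotransferase, gave -1.68 (adjusted p 0.462). Without tumor 470 the counts were 4 higher and 1 lower, where 7.1% of all probes were higher. Of 16 genes for chondroitin and dermatan sulfate synthesis, 15 had a positive difference and 3 were higher at that level, with a median of 0.47. Ust, a 2-O-sulfotransferase that makes a substrate of Ids, gave 1.37 (adjusted p 0.429) and a second probe of it 0.10, and Dse, the epimerase that makes iduronic acid, gave 1.11 (adjusted p 0.462). In the lung over mammary contrast Extl2 (1.12, adjusted p 0.529) was the 1 gene of these lists past that level.

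Among the proteoglycan core proteins that carry the chains, the syndecans Sdc2 and Sdc4 had differences of opposite sign. Sdc2 lay between -0.46 and 1.01 in sarcomatoid tumors and between -2.78 and 0.04 in adenocarcinomas, a difference of 1.83 (SE 0.48, limma adjusted p 0.378). Sdc4 gave -1.08 (SE 0.38, adjusted p 0.430). The second probe of each gene had the same sign (1.58 and -0.48). These were the 2 of 12 heparan sulfate core proteins at an unadjusted p below 0.05, where 9.84% of all probes were. Of 8 chondroitin and dermatan sulfate core proteins, Srgn, the serglycin of immune cell granules, was the 1 at that level (1.48, adjusted p 0.492).

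The genes whose pattern over the 10 tumors was most like that of Arsj were found by the root mean square difference of mean-centred log2 ratios, over 22103 gene-named probes well above background on at least 8 arrays. All patterns share the same arrays and scan batches. They were Ccl7, a chemokine that draws monocytes (0.525 log2 units), Glipr1 (0.531), the junction protein Jam3 (0.557), the protease Plau (0.614) and Emp3 (0.621), where the spread of Arsj itself was 1.72. Ccl7 was at 1.33 in tumor 470 and at -1.57 to -0.69 in the other adenocarcinomas. Since Ccl7 was found by its likeness to Arsj over these same tumors, this is no separate evidence on tumor 470. Among the members, Ids came nearest to Arsj (1.14), followed by Arsa (1.20), Arsb (1.69), Sulf1 (1.74) and Sulf2 (2.02).

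The genes nearest to Sulf1 were Abi3bp, an extracellular matrix protein (0.229), C1qtnf2 (0.289) and Larp6, which binds collagen messenger RNA (0.398), where the spread of Sulf1 was 1.08. Abi3bp was at 1.62 or above in adenocarcinomas 105 and 470 and at 0.09 or below in 131, 17 and 85. It was found by its likeness to Sulf1 over these same tumors, so this is no separate evidence on scan batch. The nearest to Sulf2 were Paqr4 (0.282), Acin1 (0.309) and Polr1a (0.332), where the spread of Sulf2 was 0.721. Sulf1 and Sulf2 differed from each other by 1.60, and the closest pair of members was Arsb and Sulf2 (0.558).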

How the data were processed

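RNA of 10 tumors was hybridised with a reference, 1 array per tumor. The authors deposited scanner files with spot intensity in both channels, per the file headers from Feature Extraction 10.7.3.1, 11.0.1.1 and 11.5.1.1, and a normalized log2 table. The submitters' processing notes name limma, and the steps are not given in the sources used here. Here median intensities were corrected with limma 3.58.1 (R 4.3.3; normexp, offset 50), normalized by loess within arrays, with control and outlier spots left out and spots of a probe averaged. Groups came from the labels. All 41174 probes entered limma's moderated linear model with two-sided tests (Benjamini-Hochberg adjusted p below 0.05), with 2 groups (sarcomatoid over adenocarcinoma) or 3 (lung over mammary sarcomatoid). The code was tested on simulated data. P-values measure the spread between these tumors, and the 2 lung tumors share an origin with mammary tumors. The number of arrays limits the precision.

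Probes were named through the RefSeq table of GRCm38 (22951 by accession, 6659 by symbol, 3109 by synonym, 8455 unnamed), and probe coordinates are mm7. The probe with the highest mean red signal stood for a gene. Named were all members, the genes most like Arsj (5), Sulf1 (3) and Sulf2 (3), and, for 7 lists on sulfated glycans and lysosomes, up to 2 genes per direction with the smallest unadjusted p. Values for Sgsh, Arsi and Arsk were added after they were seen. Some genes that this rule names are not reported here. Means of 6 cell type marker lists were taken. The members and lists were chosen with earlier results of these data known. Alternatives were background correction, normalization, filters, batches, blocks, tumors left out and the deposited table. Hs3st6 and Hspg2 had no probe matched.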

Additional observations from a re-analysis of the deposited data

Results flagged for a closer look

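In 24 combinations of probe and group, 3 held a tumor far from the other 4 of its group, where chance flags about 1 in 20 groups (1.2 of 24). In the adenocarcinomas, Arsj was 0.78 in tumor 470, with the others between -2.39 and -1.48. On the second Arsb probe, adenocarcinoma 85 was at -0.03, with the others between -0.70 and -0.53. On a dim Ids probe (A_52_P173766), lung tumor 323 was at 0.49, with the other sarcomatoid tumors between 0.07 and 0.14.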

How the results depend on the processing

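Over 24 settings of the sarcomatoid over adenocarcinoma comparison, the Arsj difference stayed positive, from 2.46 (mammary tumors only) to 4.75. Of 24 probe results, 6 turned sign under at least 1 setting and, Arsj between the groups being left untested, 0 passed an adjusted p below 0.05 under any.

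Over all probes, 0 passed between the groups. The count was 1 with median centring, 3 with slide as a random block, 3 with 1 value per tumor number, and 0 to 633 with a tumor left out (633 without adenocarcinoma 470). For lung over mammary tumors, 2 passed. The count was 10 in the deposited table, 0 with quantile normalization, 0 with an intensity trend, 0 with scan batch as a term, 5 with sarcomatoid arrays only and 0 to 34 with a tumor left out (34 without lung tumor 307). Where 1 lung tumor was left out, the spread of the remaining one was taken from the other groups. With the replicate block (lung and mammary tumors paired by tumor number) 1 passed. The blocked lung over mammary difference was 1.33 for Arsj and 1.19 for Arsb, and the block changed no call of a member.

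Of the 5 genes besides Arsj, the count at an unadjusted p below 0.05 between the groups (1) was 2 in the deposited table, with quantile normalization and with scan batch as a term, 0 with 1 value per tumor number and in mammary tumors only, and 1 to 2 with a tumor left out. For lung over mammary tumors (1) it was 2 with quantile normalization, 4 with sarcomatoid arrays only and 0 to 3 with a tumor left out.

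Between the groups, the dim Arsb probe turned to -0.02 without background correction and -0.05 in mammary tumors only, and to -0.05, -0.02 and -0.01 without lung tumor 323, tumor 594 and tumor 105 (range with a tumor left out -0.05 to 0.11). The brightest Arsb probe turned to -0.25 in mammary tumors only and to -0.05 without lung tumor 307 (range -0.05 to 0.33). Sulf1 turned to -0.10 with scan batch as a term, to -0.13 without tumor 594 and to -0.00 without tumor 131 (range -0.13 to 0.72). For lung over mammary tumors, Sulf1 turned to 0.39 with scan batch as a term, and 2 dim Ids probes to -0.07 without lung tumor 323 (range -0.07 to 0.15) and -0.03 without lung tumor 307 (range -0.03 to 0.15). The cause was not tested. Low signal limits the dim Arsb and Ids probes and the Arsj values of tumors 131 and 85.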
